A study of Mus musculus with 41 samples.

Results

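The spleens of NOS2 knockout and wild-type mice, both treated with C. parvum, were compared for the levels of their microRNAs (miRNAs). The comparison was defined by the sample titles, which give 5 arrays of C. parvum-treated p53+/+NOS2-/- mice (NOS2KO) and 5 arrays of C. parvum-treated p53+/+NOS2+/+ mice (WT). These are 10 of the 41 arrays in the series. All mice were of the C57BL strain, and both groups carried intact p53 and received C. parvum. The remaining arrays set the main comparison in context. They also entered the shared normalization and the fit that estimates the spread, so the p-values of the main comparison depend on them. They are 5 NOS2KO and 5 WT controls, and the same treated and control groups of p53 knockout mice (p53KO, 5 and 4 arrays) and of mice lacking both genes (DKO, 6 and 6 arrays). The controls received saline according to the series' design text. Not given in the sources used here were the age and sex of the mice, the dose and time of treatment, and the way the NOS2 allele was disrupted. The design text speaks of mice in groups of 4 or 5 and does not say whether each array is 1 mouse. The p-values thus measure the spread between arrays, estimated over all groups of the series.

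NOS2 is the inducible nitric oxide synthase, which macrophages and other cells switch on in response to microbial products and inflammatory cytokines, and which makes large amounts of nitric oxide. miRNAs are short RNAs that pair with messenger RNAs, mainly through the bases called the seed near their 5′ end, and lower the stability or translation of the paired messages. In the spleen their mix reflects both the cells present (lymphocytes, myeloid cells, red cell precursors, stroma) and the state of those cells. Because whole spleen RNA was measured, fewer cells of a type and less miRNA per cell cannot be told apart in any value below.

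A probe was tested where both groups had at least 3 measured values, which held for 338 of the 637 probes. Levels are log2 signals after quantile normalization between arrays, so 1 unit is a doubling and each value is relative to the bulk of the probes. The level of one probe cannot be set against that of another. Markers of blood cells were measured on all 10 arrays. The myeloid miR-223 averaged 14.73 in NOS2KO and 14.38 in WT spleens, and the lymphocyte-rich miR-150 averaged 13.56 in NOS2KO and 13.76 in WT spleens. Of the liver and pancreas markers checked, 5 probes had values on knockout arrays only. miR-122a-a of liver and the pancreatic miR-216a-a and miR-217-a were each measured on NOS2KO replicate 5 alone. miR-122a-p had values on 4 of the NOS2KO arrays, from 4.86 to 6.76, near the low end of measured values. miR-217-p had values on 3, replicates 3, 4 and 5, which are the knockout arrays of set 2 described below. None of these 5 probes had a value on a WT array, and the WT arrays compared are all of set 1. miR-375-a, known from pancreatic islets, was measured throughout and read 8.66, 10.41, 8.60, 7.73 and 12.21 in NOS2KO spleens (replicates 1 to 5), against 9.30, 8.85, 8.55, 9.12 and 8.30 in WT spleens. The other probe of this miRNA, miR-375-p, averaged 11.10 in NOS2KO spleens (10.45 to 11.55) and 11.07 in WT spleens (10.52 to 11.51). For miR-375-a, the highest value was held by NOS2KO replicate 5. Without that array the comparison below called 5 probes, of which 4 (miR-341, miR-106a-p, miR-377 and miR-378-3p) were among the 8 called with it, and miR-9-3-5p, miR-193, miR-136 and miR-146b had adjusted p of 0.0903 to 0.12 (limma). The part of other tissue in these differences was not tested.

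One technical division of the arrays touches every result. The probe miR-370-a separated all 41 arrays cleanly, with deposited values of at most 9.32 on 18 arrays (set 1) and at least 11.14 on 23 arrays (set 2). All 5 WT C. parvum arrays lay in set 1. Of the NOS2KO C. parvum arrays, replicates 1 and 2 lay in set 1 and replicates 3, 4 and 5 in set 2. After normalization miR-370-a read 9.17, 9.42, 11.51, 11.55 and 12.09 in NOS2KO spleens (replicates 1 to 5), against 9.40, 9.32, 9.19, 9.44 and 9.28 in WT spleens. The labels do not name these sets or say what they are. Each called difference is therefore given for all arrays, for the 2 knockout arrays that share the WT set, and from a fit with the array set as a block.

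Loss of NOS2 in C. parvum-treated mice was accompanied by higher levels of 2 miRNA probes, miR-341 and miR-378-3p, and by lower levels of 6, miR-106a-p, miR-377, miR-9-3-5p, miR-193, miR-136 and miR-146b (limma, Benjamini-Hochberg adjusted p under 0.05). The differences ranged from a 3.05-fold higher level for miR-341 to a 1.46-fold lower level for miR-146b. These 8 were 2.37% of the probes tested, and 50 probes had an unadjusted p under 0.05. All 8 pointed the same way in the 2 set 1 knockout arrays (miR-378-3p with a value on only 1 of them) and in the fit with the array set as a block. Those arrays are also part of the main difference, and 193 of 310 tested probes (62.3%) with both measured had the same sign in them as overall. miR-341 passed the threshold in the block fit, which called 1 of 338 probes (0.296%). In a fit of the set 1 arrays alone its adjusted p was 0.206 (limma).

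The mature sequences of the called miRNAs are shown because the seed decides which messages a miRNA can pair with, and because they show whether the called probes belong to one seed family. RefSeq (GRCm38.p6) held sequences for 7 of the 8, and capitals mark the seed, bases 2 to 8. Most probe names do not state which arm of the hairpin the probe detects, so both arms are given except for miR-9-3-5p. The first of these, miR-341, lies on chromosome 12, plus strand, and is the one called with the array set as a block:
miR-341-5p: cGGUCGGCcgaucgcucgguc
miR-341-3p: uCGGUCGAucggucggucggu

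The other members on chromosome 12, plus strand, were both lower in NOS2KO spleens:
miR-377-5p: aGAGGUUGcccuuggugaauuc
miR-377-3p: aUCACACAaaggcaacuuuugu
miR-136-5p: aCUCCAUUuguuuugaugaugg
miR-136-3p: aUCAUCGUcucaaaugagucuu

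The remaining lower members lie on chromosome X, minus strand (miR-106a), chromosome 7, plus strand (miR-9-3), chromosome 11, plus strand (miR-193a, the RefSeq name matched to the probe miR-193) and chromosome 19, plus strand (miR-146b):
miR-106a-5p: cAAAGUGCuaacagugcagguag
miR-106a-3p: aCUGCAGUgccagcacuucuuac
miR-9-5p: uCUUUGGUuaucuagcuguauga
miR-193a-5p: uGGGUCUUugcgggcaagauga
miR-193a-3p: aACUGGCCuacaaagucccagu
miR-146b-5p: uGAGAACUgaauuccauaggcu
miR-146b-3p: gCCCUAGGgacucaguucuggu

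The 13 sequences carry 13 different seeds, so these 7 called miRNAs share no seed family with each other. The miR-341 hairpin is repetitive. CGGU, read on the strand of the hairpin, occurs 7 times without overlap in its 96 bases, and no other of the 1005 mouse hairpins in the RefSeq table holds it that often. At least 1 CGGU is found in 120 of them (11.9%).

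**Figure D1:**
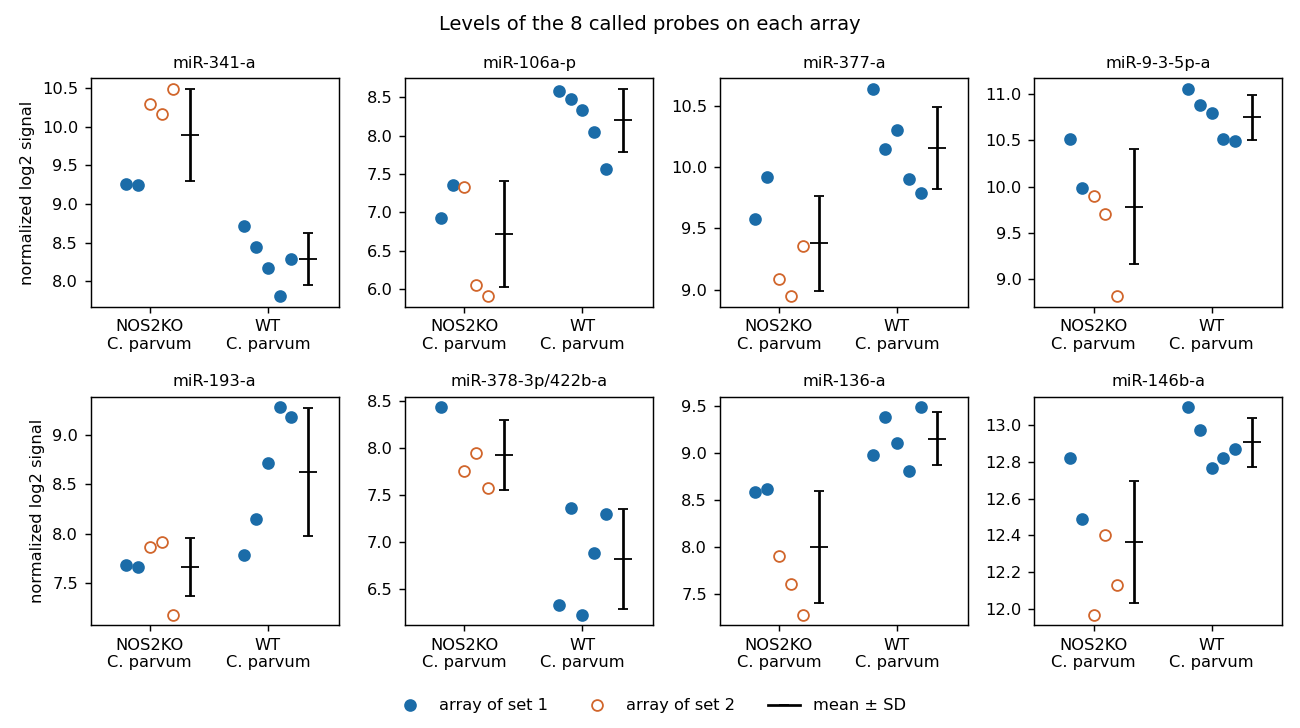
Normalized log2 signal (vertical axis) of the 8 called probes on each NOS2KO and WT array after C. parvum. Each point is 1 array in replicate order, filled for set 1 and open for set 2, and the bar at the side of each group is the mean ± SD. For miR-341 the filled NOS2KO points, 9.27 and 9.25, lie above all WT points and below the open NOS2KO points.

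miR-341 belongs to the imprinted Dlk1-Dio3 cluster, a run of miRNAs that in mammals are expressed from the maternal chromosome. It read 9.27, 9.25, 10.30, 10.17 and 10.49 in NOS2KO spleens (replicates 1 to 5), against 8.72, 8.44, 8.17, 7.81 and 8.29 in WT spleens. Every NOS2KO array lay above every WT array, and the set 1 knockout arrays lay between the WT arrays and the set 2 knockout arrays. The means were 9.90 ± 0.59 in NOS2KO and 8.29 ± 0.34 in WT spleens (SD, n = 5 each), a difference of 1.61 ± 0.23 (SE; limma adjusted p = 6.65e-06). The difference was 0.97 in the set 1 knockout arrays alone and 2.04 in those of set 2. With the array set as a block it was 1.11 ± 0.20, with a limma adjusted p of 0.000926 and a 95% interval of 0.70 to 1.51.

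Across the 8 groups, miR-341 was lowest in the treated WT spleens. In order of their means, it reached 8.29 ± 0.34 in WT C. parvum, 9.15 ± 0.34 in WT control, 9.67 ± 0.45 in DKO control, 9.90 ± 0.59 in NOS2KO C. parvum, 10.04 ± 0.25 in NOS2KO control, 10.11 ± 0.33 in DKO C. parvum, 10.36 ± 0.13 in p53KO C. parvum and 10.44 ± 0.15 in p53KO control spleens (SD). The ranges of neighbouring groups in this order overlapped throughout, though in the lowest pair only because the highest treated WT array, at 8.72, just passed the lowest WT control, at 8.70. The array sets are unevenly spread over this order, as the plot of miR-341 on all arrays shows. Within set 1 alone, the 2 NOS2KO C. parvum arrays read 9.25 and 9.27, while the 5 WT C. parvum arrays ran from 7.81 to 8.72. The 5 WT controls of the same set ran from 8.70 to 9.56, so the set 1 knockout arrays lay inside the range of untreated WT spleens. The treated mean minus the control mean was -0.14 in NOS2KO and -0.86 in WT mice, differences that were not themselves tested here. The NOS2KO value mixes the array sets, because its controls are all of set 2. Within set 2 the treated NOS2KO arrays averaged 10.32, above the 10.04 of the controls. The NOS2KO minus WT difference after C. parvum exceeded that in controls by 0.72 ± 0.32 (SE), which did not pass the threshold (limma adjusted p = 0.316). With the array set as a block it exceeded it by 1.06 ± 0.25 and did (limma adjusted p = 0.0207).

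**Figure D2:**
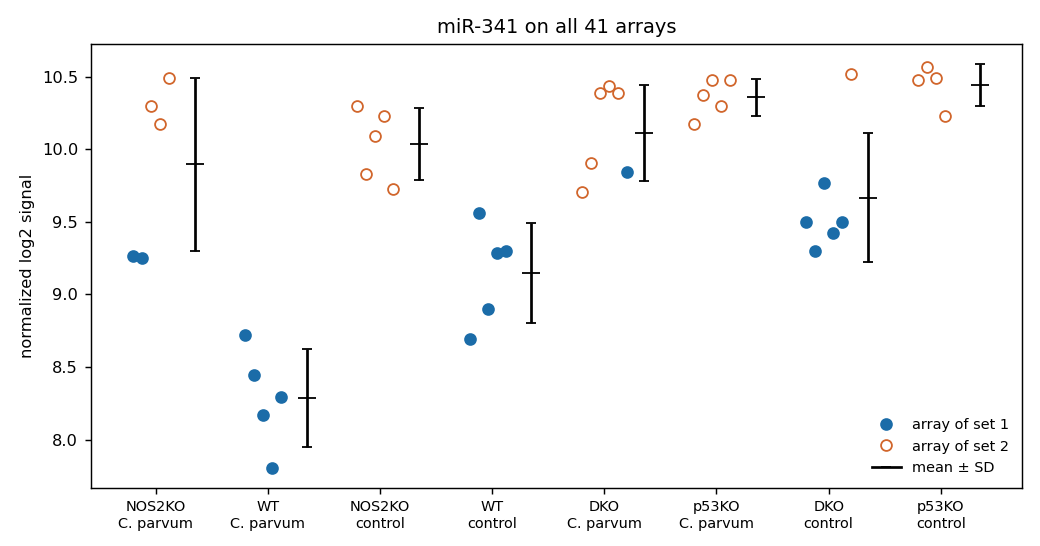
Normalized log2 signal of miR-341 on all 41 arrays by group, filled points for set 1, open points for set 2, and mean ± SD at the side of each group. Treated WT spleens, from 7.81 to 8.72, are the lowest group, and within the treated NOS2KO and the DKO control groups the open points lie above the filled ones. In the treated DKO group the filled point, at 9.85, lies above an open one at 9.70.

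The other called members of the Dlk1-Dio3 cluster went the other way. miR-136 lies opposite the Rtl1 gene, and in the RefSeq order of chromosome 12 its hairpin is the one just before miR-341. It read 8.58, 8.62, 7.90, 7.61 and 7.28 in NOS2KO spleens, against 8.98, 9.38, 9.10, 8.80 and 9.48 in WT spleens. No NOS2KO array reached the lowest WT array, and the set 1 knockout arrays were the nearest to it. The difference was -1.15 ± 0.31 (SE; limma adjusted p = 0.0273), but -0.55 in the set 1 arrays and -0.66 with the array set as a block (limma adjusted p = 0.494).

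miR-377 read 9.57, 9.92, 9.08, 8.95 and 9.36 in NOS2KO spleens, against 10.64, 10.15, 10.30, 9.90 and 9.79 in WT spleens. The groups overlapped through 1 array, NOS2KO replicate 2, which is of set 1. The difference was -0.78 ± 0.18 (SE; limma adjusted p = 0.0127), -0.41 in the set 1 arrays and -0.46 with the block (limma adjusted p = 0.386). Its 5p arm shares the seed GAGGUUG with miR-672-5p. The 2 miR-672 probes tested differed by -0.69 ± 0.25 (miR-672-p) and -0.55 ± 0.26 (miR-672-a) (SE), and neither passed the threshold.

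Taking 1 probe per miRNA of the cluster, 24 of 42 on the array were tested, and 1 was called higher and 2 lower, 12.5% beside 2.37% of all probes. The 4 further tested probes of these miRNAs (miR-410-a, miR-539-a, miR-543-a and miR-667-p) were not called. The median difference of the 24 was -0.12, beside 0.02 over all 338 probes. In the set 1 knockout arrays the cluster's median was 0.08. Neighbouring members did not all differ in one direction. The miR-136 and miR-341 hairpins are adjacent and their probes differed in opposite directions, and miR-370-a, whose values define the array sets and so fix its own difference, lies 2 places further on. The uncalled miR-412-a had -1.05 ± 0.37 over all arrays and -0.01 in the set 1 knockout arrays.

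**Figure D3:**
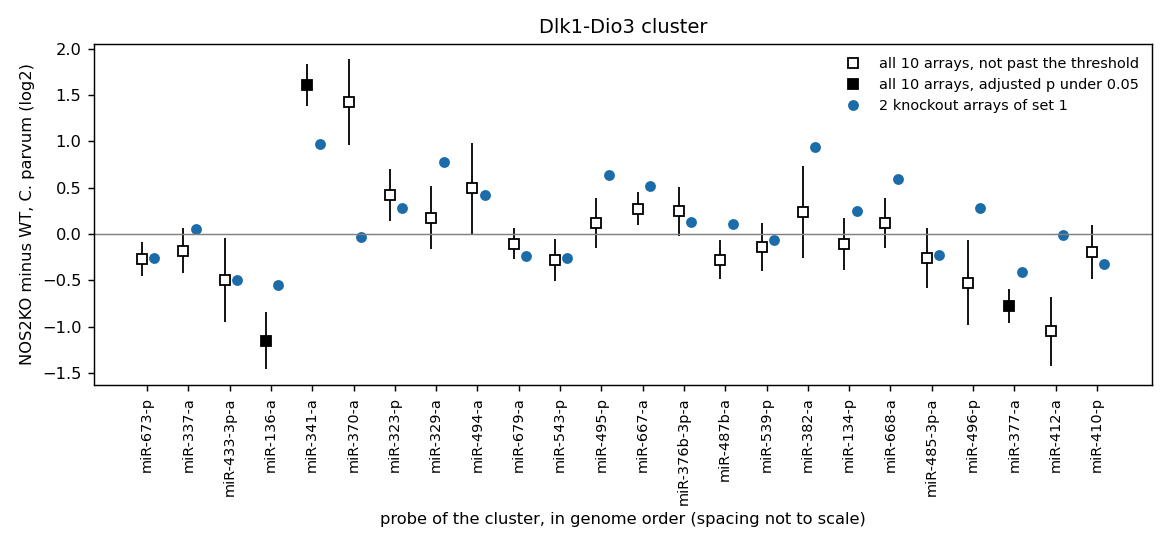
NOS2KO minus WT difference after C. parvum (log2) for the 24 tested miRNAs of the Dlk1-Dio3 cluster, 1 probe each, in genome order. Squares with bars are differences over all 10 arrays ± SE, filled where the adjusted p is under 0.05, and circles are differences from the 2 knockout arrays of set 1. miR-341 stands at 1.61 and 0.97 with lower neighbours on its left, and miR-370, which defines the sets, is at 1.42 over all arrays and at -0.03 in set 1.

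Among 9 tested miRNAs tied to inflammatory signalling, 2 were called lower and none higher, beside 2.37% called of all probes. miR-146b shares its 5p seed with miR-146a, a brake on Toll-like receptor signalling that acts on the adaptors Irak1 and Traf6. It read 12.82, 12.49, 11.97, 12.40 and 12.13 in NOS2KO spleens, against 13.10, 12.98, 12.77, 12.82 and 12.87 in WT spleens. Only NOS2KO replicate 1, of set 1, reached into the WT range. The difference was -0.54 ± 0.15 (SE; limma adjusted p = 0.0375), -0.25 in the set 1 arrays and -0.30 with the block (limma adjusted p = 0.54). miR-146a itself differed by -0.08 ± 0.16 and was not called.

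miR-9, best known from the nervous system, is induced by Toll-like receptor ligands in human monocytes and neutrophils. The miR-9-3-5p probe read 10.52, 9.98, 9.90, 9.70 and 8.82 in NOS2KO spleens, against 11.06, 10.89, 10.80, 10.52 and 10.49 in WT spleens. The groups met only at NOS2KO replicate 1, of set 1. The difference was -0.97 ± 0.23 (SE; limma adjusted p = 0.0127), -0.50 in the set 1 arrays and -0.68 with the block (limma adjusted p = 0.353).

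The other inflammation miRNAs did not pass the threshold. miR-155, which activated lymphocytes and macrophages make in quantity, read 12.72, 12.98, 12.49, 11.93 and 13.93 in NOS2KO spleens, against 13.22, 13.15, 13.30, 13.38 and 13.38 in WT spleens. The first 4 knockout arrays lay below all WT arrays and replicate 5 above them. The difference was -0.48 ± 0.23 (SE; limma adjusted p = 0.322), -0.44 in the set 1 arrays and -0.37 with the block. Without NOS2KO replicate 5 it was -0.76 and passed the threshold (limma adjusted p = 0.0425). miR-187, an interleukin-10-induced miRNA in human monocytes, was measured on 4 arrays of each group and differed by -0.94 ± 0.32 (limma adjusted p = 0.127), with -1.10 in the set 1 arrays and -1.19 with the block. miR-21 differed by 0.27 ± 0.21 over all arrays, by -0.21 in the set 1 arrays and by -0.02 with the block. The list as a whole had 3 positive and 6 negative differences, beside 173 and 165 over all probes tested, and a median of -0.14 (-0.21 in set 1).

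miR-106a comes from a paralog of the miR-17-92 cluster on the X chromosome, a family that drives proliferation and lymphocyte survival. The called probe is miR-106a-p, 1 of 2 probes of this miRNA. It read 6.93, 7.35, 7.33, 6.05 and 5.91 in NOS2KO spleens, against 8.58, 8.47, 8.34, 8.05 and 7.56 in WT spleens. All NOS2KO arrays, those of set 1 included, lay below all WT arrays. The means were 6.71 ± 0.69 in NOS2KO and 8.20 ± 0.41 in WT spleens (SD, n = 5 each), a difference of -1.49 ± 0.33 (SE; limma adjusted p = 0.0125). It was -1.06 in the set 1 arrays and -1.28 ± 0.38 with the block (limma adjusted p = 0.13). In control spleens the same probe averaged 6.86 ± 0.45 in NOS2KO (n = 4) and 7.16 ± 0.05 in WT (n = 5). The treated WT group thus lay 1.04 above its control, while the treated NOS2KO group lay -0.14 from its own. The NOS2KO controls are all of set 2, where the 3 treated NOS2KO arrays averaged 6.43. The NOS2KO minus WT difference after C. parvum, less that in controls, was -1.18 ± 0.48 (SE). It did not pass the threshold (limma adjusted p = 0.249, and 0.268 with the block).

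The other probe of this miRNA, miR-106a-a, differed by -0.17 ± 0.20 (limma adjusted p = 0.692) and so did not share the size of that difference. miR-106a-5p shares the seed AAAGUGC with miR-17-5p, miR-20a, miR-20b, miR-106b and miR-93. Their probes differed by -0.11, -0.22, -0.24, -0.34 and -0.01 (miR-93-a), and none passed the threshold. miR-20b-a had no overlap between groups, at 13.22, 13.30, 13.15, 13.22 and 12.93 in NOS2KO spleens against 13.38, 13.38, 13.38, 13.44 and 13.44 in WT spleens, with -0.24 ± 0.17 (SE; limma adjusted p = 0.518). The list of miR-17-92 members and paralogs holds 1 probe per miRNA and not miR-106a-p. All 10 of its tested probes had a negative difference, beside 165 of all 338 probes tested, and none was called. These 10 related probes are not independent of each other. Their median was -0.23 over all arrays and -0.09 in the set 1 knockout arrays, where miR-17-5p, miR-25, miR-92-1 and miR-93-a were positive.

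miR-193a held its size in set 1, and miR-378 did so on the 1 set 1 knockout array that had a value for it. miR-193a targets the receptor KIT in human leukaemia cells. The probe miR-193-a read 7.69, 7.66, 7.86, 7.92 and 7.18 in NOS2KO spleens, against 7.78, 8.15, 8.72, 9.28 and 9.19 in WT spleens. The set 1 knockout arrays lay below all WT arrays, and the groups overlapped only through WT replicate 1. The difference was -0.96 ± 0.24 (SE; limma adjusted p = 0.0198), -0.95 in the set 1 arrays and -1.02 ± 0.28 with the block (limma adjusted p = 0.13). It was the called probe for which the set made the least difference, with -0.02 between the set 2 and the set 1 knockout arrays.

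miR-378, whose hairpin sits in an intron of Ppargc1b, is linked to mitochondrial energy metabolism. The probe miR-378-3p/422b read 8.43, 7.75, 7.95 and 7.57 in NOS2KO replicates 1, 3, 4 and 5 and had no value in replicate 2. In WT spleens it read 6.33, 7.35, 6.23, 6.88 and 7.29. All measured NOS2KO arrays lay above all WT arrays, and the highest was of set 1. The difference was 1.11 ± 0.28 (SE; limma adjusted p = 0.0229), 1.61 for the single set 1 array and 1.16 ± 0.35 with the block (limma adjusted p = 0.13). It depended on how the empty cell was treated, and was 0.49 with missing cells at a low value (limma adjusted p = 0.607). NOS2KO spleens averaged 7.92 ± 0.37 treated and 7.75 ± 0.45 untreated (SD, n = 4 and 5), and WT spleens averaged 6.82 ± 0.53 treated and 7.71 ± 0.22 untreated (SD, n = 5 and 4). The NOS2KO minus WT difference after C. parvum, less that in controls, was 1.06 ± 0.40 (SE). It did not pass the threshold (limma adjusted p = 0.199, and 0.296 with the block).

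**Figure D4:**
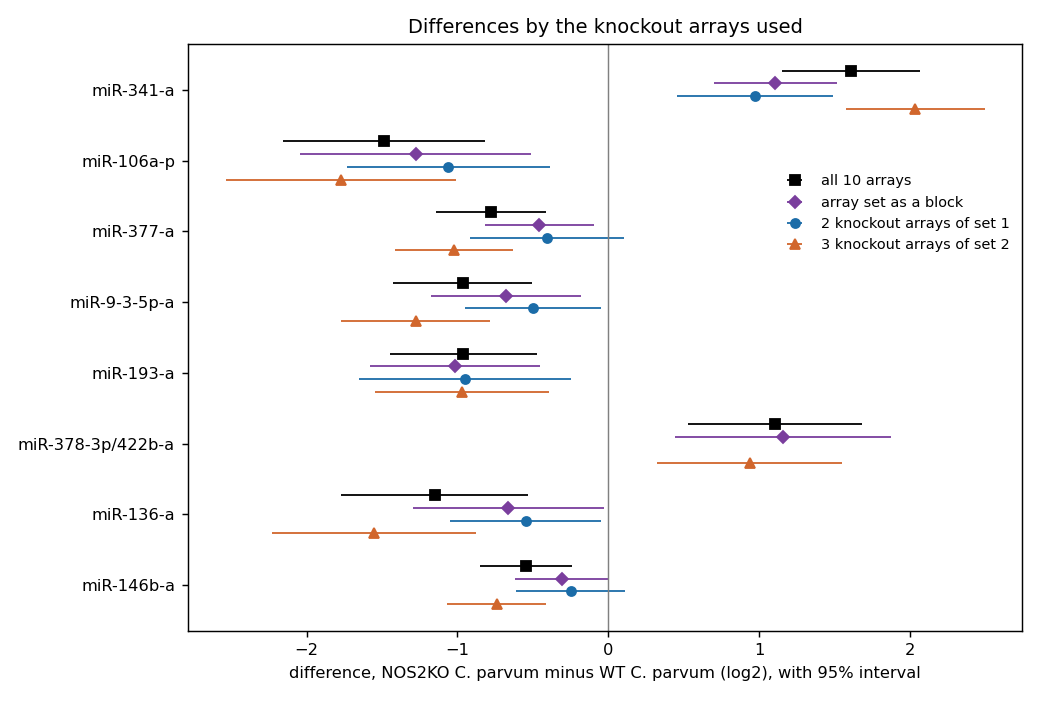
NOS2KO minus WT difference after C. parvum (log2) with its 95% interval for each called probe, from all 10 arrays, with the array set as a block, from the 2 knockout arrays of set 1, and from the 3 knockout arrays of set 2. miR-378-3p has no set 1 fit because 1 knockout value is left there. All estimates of a probe lie on one side of 0, and 4 of the 7 set 1 estimates are between -0.55 and -0.25.

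All 3 set 2 knockout arrays lay beyond every WT array on the called side for 7 of the 8 called probes, beside 24.4% (74 of 303) of all probes with the 3 measured. For 4 of the 7 called probes with both set 1 knockout arrays measured (miR-341, miR-193, miR-136 and miR-106a-p), both of those arrays also lay beyond every WT array on that side, beside 14.5% (45 of 310) of all probes with both measured. Without overlap between all 5 and 5 arrays were 3 of the 7 called probes measured on all 10, beside 2.2% (6 of 273) of such probes. The other 3 of those 6 were miR-20b-a, miR-293-a and miR-706-p, named here after their values were seen. Because the called probes were chosen by their difference on these same arrays, shares above those of all probes follow from that choice. The set 1 difference was under 50% of that over all arrays for miR-146b and miR-136. With each of the 10 arrays left out in turn, miR-341 and miR-106a-p passed the threshold in 10 of 10 fits, miR-377 and miR-9-3-5p in 8, miR-193 and miR-378-3p in 6, and miR-136 and miR-146b in 3.

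A fit within set 1 alone, 2 NOS2KO against 5 WT arrays among the 18 of the set, called 0 of 318 probes with limma. In it 30 had an unadjusted p under 0.05, among them 5 of the 7 called probes that could be tested. A fit of the 3 set 2 knockout arrays against the WT arrays called 33 of 303 probes (10.9%), 13 higher and 20 lower, all 8 among them. Both fits reuse arrays on which the 8 were called, so neither is a separate test of them. Over 310 probes the median absolute difference from WT was 0.21 for the set 1 knockout arrays and 0.33 for those of set 2.

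The differences between the array sets were also measured in other mice. Set 2 minus set 1 was computed within the NOS2KO C. parvum group and, separately, within the DKO groups, which share no array with it. Over 307 probes these differences correlated across probes (Pearson's r = 0.645, Spearman's rho = 0.367), with miR-370-a left out. Without the 3 probes below -3 in either (miR-194-1-p, miR-686-p and miR-99b-p), r was 0.385 and rho 0.348 over 304 probes. Probes are not independent replicates, and the DKO difference rests on 1 array of the rarer set in each treatment. The DKO set difference had the sign of the called difference for 7 of the 8 called probes, and was 0.67 for miR-341, -0.67 for miR-136 and -0.09 for miR-106a-p. No DKO array enters the called differences, so a shared sign is not fixed by the computation. The called differences include knockout arrays of set 2 against WT arrays of set 1. A set difference common to these mice would therefore enter both values. The share over all probes was not counted, so 7 of 8 has no background to be read against. The part of the array set in each difference was not tested beyond the block.

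**Figure D5:**
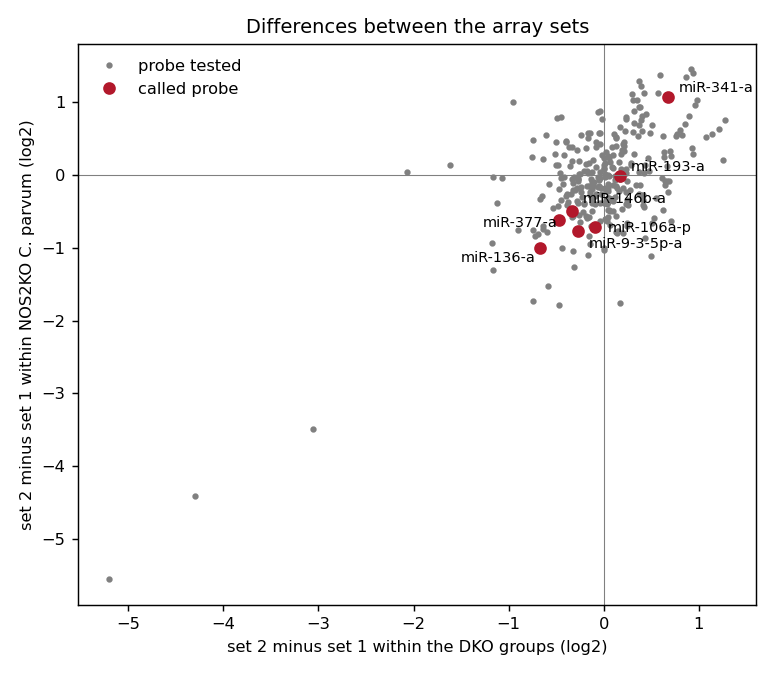
Set 2 minus set 1 difference (log2) of each of 307 probes within the NOS2KO C. parvum group (vertical axis) against that within the DKO groups (horizontal axis), with the 7 called probes that have both knockout set values in red. The cloud rises from lower left to upper right, with 3 probes below -3 on both axes, and miR-193 lies near 0 on both.

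Without C. parvum, 76 probes (23.1% of those tested) differed between NOS2KO and WT controls, 34 higher and 42 lower. All 5 NOS2KO controls are of set 2 and all 5 WT controls of set 1, so in this comparison genotype and set cannot be told apart except through the block, with which limma called 0 of 324 probes (25 with an unadjusted p under 0.05). Of the 8 probes, 6 were also called in controls, in the same direction, with values of 0.89 for miR-341, -0.52 for miR-377, -1.19 for miR-9-3-5p, -0.76 for miR-193, -1.56 for miR-136 and -0.41 for miR-146b. With the block the control difference of miR-341 was 0.05 (limma adjusted p = 0.964) and that of miR-193 was -0.85 (limma adjusted p = 0.521). miR-106a-p had -0.30 and miR-378-3p 0.05 in controls, neither called. The difference between treated and control spleens in the effect of NOS2 loss passed the threshold for 1 of 305 probes (0.328%), miR-196a-2-p, at 1.71 ± 0.37 (limma adjusted p = 0.015), with 0.34 after C. parvum and -1.38 in controls, and no probe passed without NOS2KO C. parvum replicate 2. With the block it also passed for miR-341 and for miR-672-p (-1.51 ± 0.33, limma adjusted p = 0.0131).

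In mice that lacked p53, none of the 8 was called when DKO were set against p53KO spleens after C. parvum. That comparison called 2 of 348 probes (0.575%), both of them miR-801 probes and both higher. The DKO minus p53KO values were -0.25 for miR-341, -0.33 for miR-378-3p, 0.17 for miR-106a-p, 0.18 for miR-377, 0.22 for miR-9-3-5p, 0.02 for miR-193, -0.29 for miR-136 and 0.01 for miR-146b. The effect of NOS2 loss differed between p53-null and p53 wild-type mice for 8 probes (2.48% of those tested), 5 of them among those called here. For miR-341 the difference of effects was -1.86 ± 0.31 (limma adjusted p = 1.17e-04), and -1.22 ± 0.27 with the block (limma adjusted p = 0.0113). The other 4 (miR-106a-p, miR-377, miR-378-3p and miR-9-3-5p) did not pass with the block. Of the C. parvum arrays, 5 of the 6 DKO and all 5 p53KO are of set 2, whereas those of WT are all of set 1.

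Of the marker lists of spleen cell types, 1 probe was called, beside 2.37% of all probes. Over all 338 probes tested, 173 differences were positive and 165 negative. None of the 8 lymphoid, 6 myeloid, 5 erythroid, 5 endothelial or 8 stromal probes tested was called, and of 12 progenitor and megakaryocyte probes 1 was lower (miR-146b, also counted above). The lymphoid list had 2 positive and 6 negative differences with a median of -0.20 (-0.09 in the set 1 knockout arrays), and its mean level ran from 12.14 to 12.44 on NOS2KO arrays, against 12.50 to 12.59 on WT arrays. The myeloid median was 0.24 over all arrays and -0.01 in the set 1 knockout arrays, with miR-223 at 0.35 ± 0.19 over all arrays (limma adjusted p = 0.405), -0.18 in set 1 and 0.02 with the block. The erythroid median was 0.25 over all arrays and -0.10 in set 1, and the mean level of its 5 probes ran from 11.72 to 12.77 in NOS2KO and from 11.68 to 12.04 in WT spleens. Stromal and smooth muscle probes had 7 positive differences of 8 with a median of 0.21 (0.05 in set 1), the largest for miR-152 at 1.03 ± 0.33 (limma adjusted p = 0.0875), which was 0.51 in set 1 and 0.84 with the block. Its call turned on single arrays, with an adjusted p of 0.0356 without NOS2KO replicate 1 and a difference of 0.66 without NOS2KO replicate 5. The part of these cell types in the called differences was not tested.

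The let-7 family, whose members mark differentiated cells, had positive differences for 7 of its 8 tested probes, beside 173 of all 338, and a median of 0.20. In the set 1 knockout arrays all 8 were negative, with a median of -0.43, and with the block the median was -0.30. The sign of the family's difference thus depended on the knockout arrays used, and no member was called. The miR-29 family, with 3 probes tested, had a median of -0.18 (-0.11 in set 1) and no call. Neither the p53-responsive list (14 tested, median -0.15, and -0.10 in set 1) nor the hypoxia list (6 tested, median -0.10, but 0.06 in set 1) held a called probe. Lists for other tissues had 1 call among them, miR-9-3-5p, 1 of 6 nervous system probes, and none among 2 pancreas and 4 striated muscle probes, while no liver probe was tested. The 16 immune and stromal miRNAs chosen for display, miR-150, miR-223, miR-451 and miR-34a among them, were all uncalled.

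Beyond the threshold, the next probes were miR-129-3p (-1.48 ± 0.42, limma adjusted p = 0.0753), miR-543-a (-0.65 ± 0.20, adjusted p = 0.0758) and miR-291a-5p (-1.26 ± 0.39, adjusted p = 0.0758). Just inside it were miR-136 at 0.0273 and miR-146b at 0.0375. miR-129-3p, with 4 values a group, differed as much in the 1 set 1 array that measured it (-1.51) as in set 2 (-1.47). miR-291a-5p, by contrast, had -0.19 in set 1 and -1.98 in set 2.

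Some probes differed in whether they gave a value at all. Of the probes not tested, 249 had under 3 values in both groups, 16 in NOS2KO alone and 34 in WT alone. miR-148b-a, miR-218-a and miR-292-5p-a were measured on all 5 NOS2KO arrays, both sets included, and on 0 of the 5 WT arrays. A further 4 (miR-122a-p, miR-182-a, miR-665-p and miR-685-a) had 4 values in NOS2KO and 0 in WT. Of these values, miR-182-a, miR-665-p and miR-685-a each had 1 in set 1 and 3 in set 2, and miR-122a-p had 2 in each. miR-199b-p and miR-671-a had 0 in NOS2KO and 4 in WT, and miR-468-p had 1 in NOS2KO and 5 in WT. miR-292-5p-a read between 9.50 and 10.09 in NOS2KO spleens. In NOS2KO and WT controls, miR-292-5p-a and miR-148b-a were measured on 5 and 2 arrays, and miR-218-a and miR-182-a on 5 and 5. miR-685-a had values on 3 and 5, miR-665-p on 2 and 0, and miR-122a-p on 0 and 0. For the probes measured more often in treated WT, the control counts were 3 and 2 (miR-199b-p), 4 and 2 (miR-671-a) and 2 and 3 (miR-468-p). The rule by which cells of the deposited table were left empty is not stated, so these counts are a description of probes chosen for this contrast and carry no fold and no test.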

How the data were processed

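Total RNA from spleen was extracted with Trizol, converted to biotin-labelled first strand cDNA and hybridised to a one-channel miRNA array, per the labels' protocols. The authors deposited 1 table of processed log2 signals, 637 probes on 41 arrays, with 40.4% of cells empty. Base 2 was inferred from the values (highest 16.9) and is not stated, and every fold depends on it. Not given in the sources used here are the scanner, background correction, normalization and the meaning of the probe endings -a and -p. Names without an ending stand for the -a probe, except where a list's single probe is a -p probe.

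Array medians over the 227 probes measured everywhere spread over 0.705, above the limit of 0.5, so arrays were quantile normalized, with empty cells ranked lowest and left empty. All 8 group means were fitted over 41 arrays with limma 3.58.1 in R 4.3.3, with Benjamini-Hochberg adjustment within each comparison. The fit was tested on simulated data that held no difference between the array sets, so that test does not cover them. Precision is limited by the number of arrays. No pair of arrays was identical. The members and lists were chosen with earlier results of these data known. Probes were named by rule: up to 15 largest called in each direction, further calls under the block, 16 preset miRNAs by their brightest probe, and the 3 smallest p-values of each list. Probes named beyond it illustrate shared seeds, neighbours, detection or threshold. Probes were matched to RefSeq symbols for 564 of 637 rows. Alternatives covered normalization, array set, replicate number, arrays fitted, missing values, weights and single arrays.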

Additional observations from a re-analysis of the deposited data

Results flagged for a closer look

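The test of the difference itself set 5 of the called probes apart between p53-null and p53 wild-type mice (NOS2 loss with C. parvum in p53-null minus that in p53 wild-type mice, limma). The differences of effects were -1.86 for miR-341 (adjusted p = 1.17e-04), -1.44 for miR-378-3p (0.0376), 1.65 for miR-106a-p (0.0499), 0.95 for miR-377 (0.0376) and 1.19 for miR-9-3-5p (0.0397). With the array set as a block they were -1.22, -1.50, 1.39, 0.55 and 0.80, and only that of miR-341 stayed past the threshold.

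An array far from the rest of its group by Dixon's test was found in 8 of 108 groups of values tested over the named probes, and chance flags about 5% of such groups. NOS2KO replicate 5 held 3 of them, miR-221 at 12.98, miR-34a at 8.11 and miR-486 at 13.44. The nearest other NOS2KO arrays read 11.48 for miR-221, 6.23 for miR-34a and 14.35 for miR-486. NOS2KO replicate 1 read 7.98 for miR-1, against 9.85 on the nearest of the other NOS2KO arrays. WT replicate 5 held the other 4, miR-145 at 11.72, miR-181b-2 at 12.04, miR-223 at 14.51 and miR-451 at 12.68. The nearest other WT arrays read 11.25 for miR-145, 11.58 for miR-181b-2, 14.35 for miR-223 and 13.30 for miR-451. For miR-223 all other WT arrays read the same 14.35, so even a small gap was flagged. None of these 8 probes was called. Over 273 probes measured on all 10 arrays, NOS2KO replicate 5 differed from the mean of its 4 group mates by a median of 0.48, the other NOS2KO arrays by 0.26 to 0.35 and the WT arrays by 0.13 to 0.21.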

How the results depend on the processing

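The 8 calls between NOS2KO and WT C. parvum spleens became 4 on the values as deposited, 1 with the array set as a block, 1 with only the 10 arrays fitted, 0 (limma, 30 at an unadjusted p under 0.05) with only set 1, 33 with only the set 2 knockout arrays, 14 with missing cells at a low value and 29 with array weights. Leaving out 1 array gave 3 to 17 calls (3 without WT replicate 1, 4 without WT replicate 3, 4 without NOS2KO replicate 4, 5 without NOS2KO replicate 5, 15 and 17 without NOS2KO replicates 1 and 2, both of set 1). miR-341 passed the threshold in 21 of 22 alternatives, the exception being set 1 alone (adjusted p = 0.206), and miR-106a-p in 17 of 22, both in 10 of 10 with 1 array left out. miR-377 passed in 17, miR-9-3-5p in 16, miR-193 in 14, miR-378-3p in 14 of 21, miR-136 in 10 and miR-146b in 9. No called probe changed sign. Among 46 named probes not called, 55 of 1008 alternative values changed sign, over 24 probes. miR-155, miR-152 and miR-19b-1 passed with 1 array left out (without NOS2KO replicates 5, 1 and 2, adjusted p = 0.0425, 0.0356 and 0.0128). In controls the 76 calls became 0 with the array set as a block (25 at an unadjusted p under 0.05) and 54 to 83 with 1 array left out. The 2 calls between DKO and p53KO stayed at 2 with 1 array left out. The 1 call for treated minus control became 2 with median centring, 3 with the array set as a block and 0 to 6 with 1 array left out (0 without NOS2KO C. parvum replicate 2, 6 without NOS2KO replicate 3 or WT replicate 4 of the C. parvum groups). The 8 calls for p53-null minus p53 wild type became 2 with the array set as a block, 3 with the replicate block and 2 to 18 with 1 array left out (2 without DKO replicate 6, p53KO replicate 3 or WT replicate 1, 18 without NOS2KO replicate 2). The cause of these changes was not tested.

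Deviations of same-numbered NOS2KO and WT C. parvum arrays from their group correlated weakly (from -0.07 to 0.17 over 273 probes). The correlations ran from -0.58 to 0.36 in controls and from -0.02 to 0.37 in DKO against p53KO. Whether the numbers pair the arrays cannot be settled by these values. A replicate block gave 7 calls in the main comparison, 80 in controls, 2 in DKO against p53KO, 1 for treated minus control and 3 for p53-null minus p53 wild type.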
